A study of Saccharomyces cerevisiae with 12 samples.

Results

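The mRNAs of 8 cyclins of G1 and S phase were followed in budding yeast (Saccharomyces cerevisiae) with and without the tandem SH2 (tSH2) domain of Spt6. The genes are CLN1, CLN2, CLN3, PCL1, PCL2, PCL9, CLB5 and CLB6. They were taken by their identifiers from a table of 6571 genes, where all 8 were found and all 8 passed the filter on low values. Spt6 escorts elongating RNA polymerase II and handles histones on its way, and the tSH2 domain is its docking site on the polymerase. The strains were WT, with the genotype label WT, and the mutant tSH2Δ, with the genotype label tSH2delta. The strain label of both is S288C, the laboratory reference strain. Neither received a treatment, and the labels do not say how many isolates stand behind the mutant. Cells grew in YPD, a rich glucose medium, from an optical density of 0.2 for 4 h. RNA-seq was made from 3 libraries per strain, and the comparison served a study of how Spt6 affects the stability of mRNAs.

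Cyclins are the regulatory partners of cyclin-dependent kinases, and many of their mRNAs are short-lived and rise and fall with the cell cycle. Cln3, bound to the kinase Cdc28, acts early in G1 and relieves the repressor Whi5 from the transcription factor SBF (Swi4 with Swi6). SBF and the related factor MBF (Mbp1 with Swi6) then switch on CLN1, CLN2, PCL1, CLB5 and CLB6 and many replication genes. Cln1 and Cln2 drive budding and, with Cdc28, mark the inhibitor Sic1 for destruction. This frees Clb5 and Clb6 to start replication origins. Pcl1, Pcl2 and Pcl9 bind a different kinase, Pho85, and act in polarized growth, with PCL9 transcribed earliest, at the exit from mitosis under Swi5.

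Libraries held 20483931 to 27069700 reads, and between 361 and 9736 of them fell on a given cyclin gene in a given library. The deposited unit is RPKM, reads per kilobase of gene length, scaled by the total reads of the library. Levels below are RPKM divided by a size factor that sets the median gene equal in all libraries (rescaled RPKM). They are relative to other RNAs, since no absolute amount of RNA per cell was measured. The median gene stood 0.57 higher in tSH2Δ on the log2 scale in the RPKM as deposited, and 0.01 higher after rescaling. Log2 fold changes are tSH2Δ against WT on the log2(RPKM + 1) scale, which understates the change of low genes. A gene is called when the adjusted p of limma, fitted over 6307 genes, is under 0.05. For SPT6 itself WT libraries had 180.4 ± 5.76 rescaled RPKM and tSH2Δ libraries 84.7 ± 0.816 (SD, n = 3). These are read over the whole annotated gene, with the tSH2 stretch that the mutant lacks. The log2 fold change of SPT6 was -1.08 after rescaling, -0.50 with RPKM as deposited and -0.81 after quantile normalization. No label names separate cultures for the replicates. The p-values therefore reflect only how far these libraries differ from each other, which may be technical.

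All 8 cyclin mRNAs were higher in tSH2Δ (limma, adjusted p under 0.05), where 41.6% of all genes tested were called higher and 41.9% lower. In all 8 the lowest tSH2Δ library lay above the highest WT library, as in 42.5% of all genes tested. PCL1 rose most, 7.27-fold in mean rescaled RPKM, and PCL9 least, 1.14-fold. The other 6 rose between 1.47-fold (CLN2) and 2.51-fold (PCL2). The median log2 fold change of the 8 was 1.05, beside 0.01 over all genes tested. Of 2984 genes with mean WT levels from that of CLB6 to that of PCL9, 1626 (54.5%) were called higher and 784 lower. The median log2 fold change of these 2984 genes was 0.18. In a culture of cells at all stages, more cells at the stage that makes a cyclin mRNA and more of that mRNA per cell cannot be told apart.

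**Figure D1:**
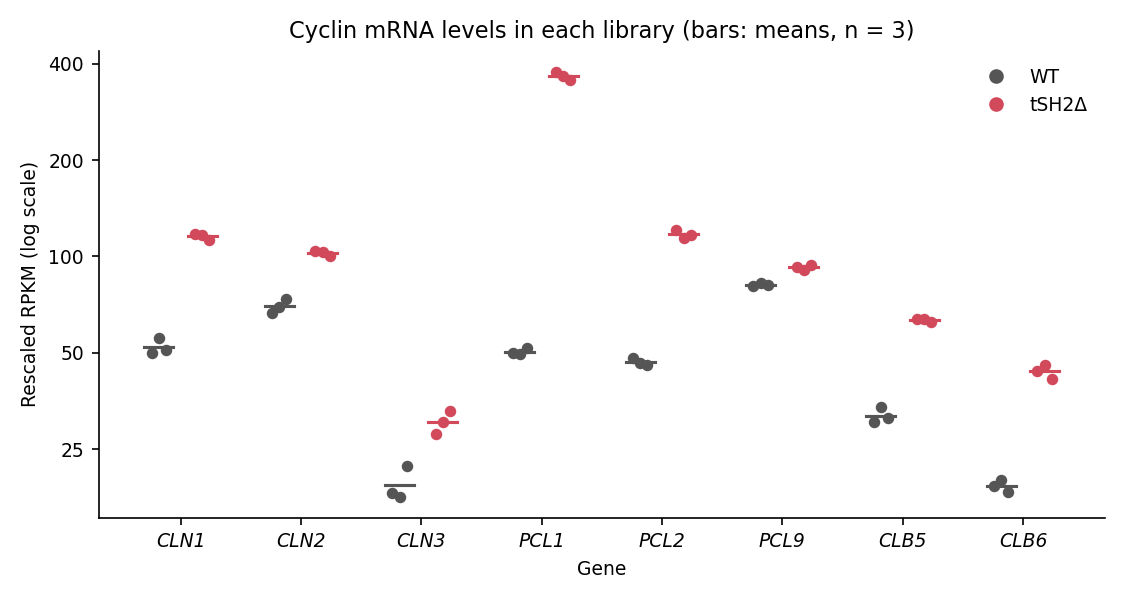
Rescaled RPKM (log axis) of each cyclin gene in the 3 WT (grey) and 3 tSH2Δ (red) libraries, with bars at the strain means. The libraries of the strains do not overlap for any of the 8 genes, and the gap is widest for PCL1 (50.4 against 366) and narrowest for PCL9 (81.5 against 92.5).

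Among the Cln cyclins, CLN1 rose more than CLN2 and CLN3. CLN1 (YMR199W, chromosome XIII, 662644 to 664284, sacCer3) stood at 49.9, 55.7 and 50.9 rescaled RPKM in WT replicates 1 to 3 and at 118, 117 and 112 in tSH2Δ. Every tSH2Δ library was at least at the level of 112, well above the WT libraries. On the log2 scale it rose by 1.13 ± 0.0477 (SE, limma adjusted p = 1.16e-07).

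CLN2 (YPL256C, chromosome XVI, 64977 to 66614) encodes the close relative of Cln1. Its levels were 66.6, 69.5 and 73.7 in WT and 103.8, 103.4 and 100.6 rescaled RPKM in tSH2Δ. The strains were thus apart in every library, but by less than for CLN1. The rise was 0.55 ± 0.0430 on the log2 scale (SE, limma adjusted p = 4.24e-06), which was 1.12 with RPKM as deposited.

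CLN3 (YAL040C, chromosome I, 65778 to 67520), the upstream activator, was among the least abundant of the 8. WT libraries had 18.2, 17.8 and 22.2 rescaled RPKM and tSH2Δ libraries 27.8, 30.3 and 32.9. CLN3 varied most within a strain, since WT replicate 3 stood above the other WT libraries and was nearest to the mutant. It rose by 0.63 ± 0.0921 in log2 (SE, limma adjusted p = 0.000238), against 0.32 after quantile normalization (limma adjusted p = 0.0104) and 1.18 in the RPKM as deposited. Without WT replicate 3 it was 0.72. The reads on CLN3 numbered 514 to 1868 per library.

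The S phase cyclins CLB5 and CLB6 rose 1.99-fold and 2.28-fold in mean rescaled RPKM. CLB5 (YPR120C, chromosome XVI, 773875 to 775182), the main activator of late origins, had 30.3, 33.8 and 31.2 rescaled RPKM in WT and 63.9, 63.5 and 62.2 in tSH2Δ. Every tSH2Δ library lay far above every WT library. The log2 fold change was 0.97 ± 0.0471 (SE, limma adjusted p = 2.44e-07).

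CLB6 (YGR109C, chromosome VII, 705359 to 706501), the shorter-lived partner of Clb5 in S phase entry, had 19.2, 20.0 and 18.4 rescaled RPKM in WT. The tSH2Δ libraries had 43.8, 45.9 and 41.4, all above 2 times the WT mean. CLB6 rose by 1.15 ± 0.0528 in log2 (SE, limma adjusted p = 1.85e-07). CLB6 had the fewest reads of the 8, with 361 to 420 in WT.

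The Pho85 cyclins held both ends of the range. PCL1 (YNL289W, chromosome XIV, 87897 to 88736) stood at 49.9, 49.5 and 51.8 rescaled RPKM in WT and at 377, 366 and 356 in tSH2Δ. Its WT level was in the middle of the 8, and every tSH2Δ library was far above the other 7 in either strain. On the log2 scale PCL1 rose by 2.84 ± 0.0369 (SE, limma adjusted p = 2.0e-09), and 9 of the 6307 genes tested had a larger rise. In level PCL1 stood above 47.6% of the genes tested in WT and above 95.9% in tSH2Δ.

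PCL2 (YDL127W, chromosome IV, 234927 to 235853), whose product can stand in for Pcl1, had 48.1, 46.5 and 45.6 rescaled RPKM in WT and 121, 114 and 117 in tSH2Δ. Its level was close to that of PCL1 in WT and far below that of PCL1 in tSH2Δ. PCL2 rose by 1.31 ± 0.0383 in log2 (SE, limma adjusted p = 2.12e-08), the largest of the 8 after PCL1.

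PCL9 (YDL179W, chromosome IV, 138291 to 139205), the paralog of PCL2, had 80.6, 82.3 and 81.6 rescaled RPKM in WT and 92.7, 90.9 and 94.0 in tSH2Δ. The strains did not overlap, but they stood close together, and 2464 of the genes tested had a larger rise. The log2 fold change was 0.18 ± 0.0320 (SE, limma adjusted p = 0.00074), 0.31 after quantile normalization and 0.76 with RPKM as deposited.

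**Figure D2:**
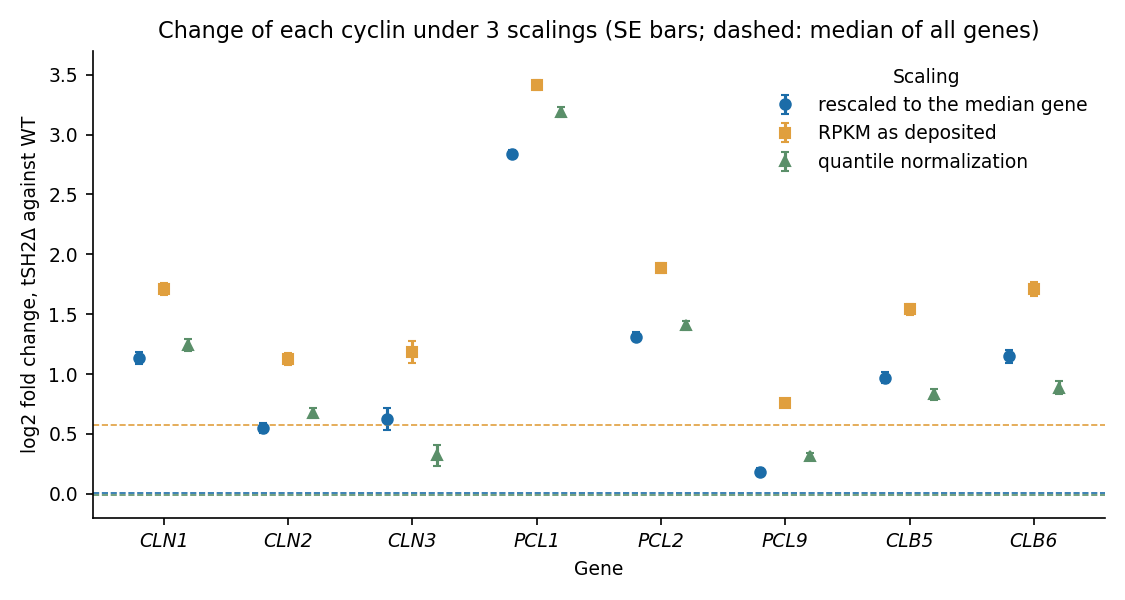
Log2 fold change of each cyclin gene, tSH2Δ against WT, with SE, after scaling to the median gene (circles), with RPKM as deposited (squares) and after quantile normalization (triangles). Dashed lines give the median of all genes under each scaling. All 24 values lie above 0 and above the dashed line of their scaling, and PCL9 lies nearest to it after scaling to the median gene (0.18).

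The sizes, though not the calls, depended on the scaling. In the RPKM as deposited, 72.4% of all genes (4565) were called higher and 17.3% (1091) were called lower. All 8 cyclins were called higher there, at a median of 1.62 in log2. After quantile normalization 2521 of the 6307 genes tested were called higher and 2592 lower, and the median of the 8 cyclins was 0.86. The CLB genes and CLN3 came out lower by this scaling than after scaling to the median gene (0.83 for CLB5 and 0.89 for CLB6). The CLN1, CLN2 and PCL genes came out higher (1.24 for CLN1, 0.68 for CLN2, 3.19 for PCL1, 1.41 for PCL2). Without rescaling the values of CLN1 and CLB5 were over 1.5 times those after rescaling, at 1.71 and 1.54. The authors' deposited table, which lists 2405 genes as higher in the mutant (36.6% of the genes in the RPKM table), holds all 8 of them as higher. Its log2 ratios, from mean RPKM plus 1, ran from 0.76 for PCL9 to 3.41 for PCL1. These rest on the same libraries and are no independent support.

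Taken as a sum of rescaled RPKM, which weighs genes per length, the 8 mRNAs went from 371 ± 7.23 in WT to 932 ± 16.0 in tSH2Δ (SD, n = 3), 2.51-fold more. The Cln sum rose 1.76-fold, from 141 ± 6.16 to 248 ± 2.32. The CLB5 and CLB6 sum rose 2.10-fold, from 51.0 ± 2.47 to 106.9 ± 2.98. The sum of PCL1, PCL2 and PCL9 rose 3.23-fold, from 179 ± 0.416 to 576 ± 13.0. PCL1 made up 13.6% ± 0.338 of the 8 in WT and 39.3% ± 0.455 in tSH2Δ. PCL9 went the other way as a share, from 22.0% ± 0.238 to 9.94% ± 0.280. The share of PCL2 was 12.6% ± 0.585 in WT and 12.6% ± 0.281 in tSH2Δ.

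The order of the levels also differed between the strains. In WT, PCL9 was highest, followed by CLN2, then CLN1, PCL1, PCL2 and CLB5, with CLN3 and CLB6 lowest. Neighbours in this order were apart in every library, except that the libraries of CLN1 and PCL1 overlapped and those of CLN3 and CLB6 did too. In tSH2Δ, PCL1 was highest, 3.12-fold above the next gene, and was followed by PCL2 and CLN1, whose libraries overlapped. CLN2, PCL9, CLB5, CLB6 and CLN3 came after them in that order, each apart from the next in every library. CLN1 and CLN2 thus stood in opposite order in the strains, as did PCL2 and PCL9.

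Ratios between mRNAs of the same library do not change when a library is divided by a size factor, so 5 were compared between the strains. Quantile normalization, which is no common factor, can change them. With 3 against 3 libraries an exact two-sided permutation test cannot give p under 0.1, and no ratio can therefore pass 0.05. The log2 ratio of CLN1 to CLN2 averaged -0.42 ± 0.107 over WT and 0.17 ± 0.0107 over tSH2Δ libraries (SD, n = 3), which differed by 0.59 (exact permutation p = 0.1, adjusted over the 5 ratios 0.125). CLN2 was the more abundant of the pair in every WT library and CLN1 in every tSH2Δ library.

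The log2 ratio of PCL1 to PCL2 was 0.11 ± 0.0676 in WT and 1.64 ± 0.0350 in tSH2Δ, a difference of 1.53. That of PCL2 to PCL9 was -0.80 ± 0.0512 and 0.34 ± 0.0390, a difference of 1.15. Both had an exact permutation p = 0.1 (adjusted 0.125), with strains that did not overlap. After quantile normalization, a setting added after seeing the data, the differences were 0.58 for CLN1 to CLN2, 1.79 for PCL1 to PCL2 and 1.11 for PCL2 to PCL9. In linear terms PCL1 was 1.08 times PCL2 in WT and 3.12 times PCL2 in tSH2Δ.

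The log2 ratio of CLB5 to CLB6 shifted less, from 0.73 ± 0.0589 to 0.53 ± 0.0598, a difference of -0.20 (exact permutation p = 0.1, adjusted 0.125). After quantile normalization this difference was -0.07 and the strains overlapped. CLB5 was the more abundant in every library, at 62.4% ± 0.960 of the pair in WT and 59.1% ± 1.00 in tSH2Δ. The log2 ratio of CLN3 to the sum of CLN1 and CLN2 was -2.66 ± 0.165 in WT and -2.85 ± 0.148 in tSH2Δ. The strains overlapped here, with a difference of -0.19 (exact permutation p = 0.2, adjusted 0.2). After quantile normalization they did not overlap, and the difference was -0.63 (exact permutation p = 0.1).

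**Figure D3:**
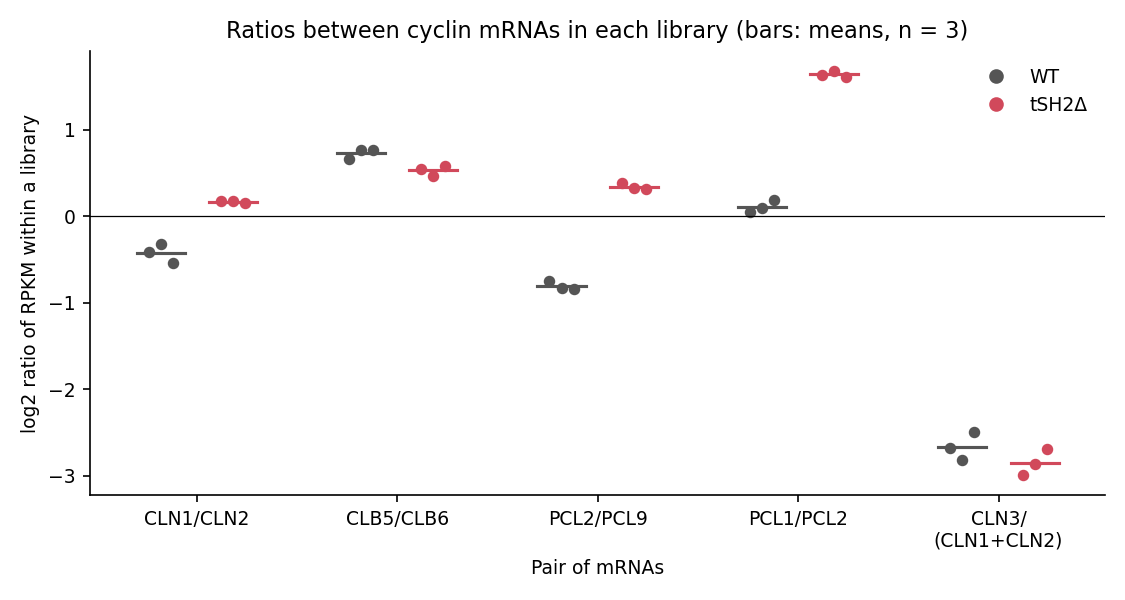
Log2 ratio of RPKM as deposited between cyclin mRNAs within each WT (grey) and tSH2Δ (red) library, with bars at the strain means. The strains lie on opposite sides of 0 for CLN1/CLN2 and PCL2/PCL9, are furthest apart for PCL1/PCL2 (0.11 against 1.64), and overlap only for CLN3/(CLN1+CLN2).

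The remaining cyclins of both kinases were compared next, from lists that hold all genes of a kind whatever their change. Of the 7 other Pho85 cyclins 6 were called higher and 1 lower, beside 41.6% and 41.9% of all genes tested. The median of the 7 was 0.64 in log2. PHO80, the cyclin of the phosphate response, rose by 1.00 (from 34.6 ± 0.936 to 70.5 ± 1.90 rescaled RPKM) and the glycogen-pathway cyclin PCL8 by 0.78. PCL10 rose by 0.66, PCL5 by 0.64, PCL7 by 0.54 and PCL6 by 0.42. CLG1 fell by 0.43, from 279.8 ± 19.2 to 207 ± 8.30 rescaled RPKM, but stood at 0.15 with RPKM as deposited and at 0.11 after quantile normalization. In the RPKM as deposited 7 of the 7 were called higher, beside 72.4% of all genes tested. After quantile normalization 6 were called higher and 0 lower.

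Of the 4 other B-type cyclins of Cdc28, which act later in the cycle, 3 were called higher and 0 lower. Among all genes tested 41.6% were called higher and 41.9% lower. The median of the 4 was 0.26. CLB1 rose by 0.41, CLB4 by 0.30 and CLB2, the main mitotic cyclin, by 0.21, from 94.8 ± 1.34 to 110.0 ± 0.775 rescaled RPKM. CLB3 had a log2 fold change of 0.08 and was not called (limma adjusted p = 0.087). After quantile normalization 2 of the 4 were called higher, with a median of 0.19, and CLB4 was not called (0.04, limma adjusted p = 0.518). All 4 were called higher in the RPKM as deposited, as were 72.4% of all genes tested. The lowest of the CLB5 and CLB6 values, 0.97, was above the highest of these 4, a difference that was not tested.

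The mRNAs of the kinases that bind these cyclins were compared next. CDC28 had 85.8 ± 2.44 rescaled RPKM in WT and 96.4 ± 4.62 in tSH2Δ, a log2 fold change of 0.16 (limma adjusted p = 0.00761), and PHO85 had 82.0 ± 3.27 and 87.1 ± 4.64, which was not called (0.08, limma adjusted p = 0.14). After quantile normalization both were called higher, at 0.32 and 0.20, as they were in the RPKM as deposited, at 0.74 and 0.66. In the list of 8 kinases, subunits and inhibitors 5 were called higher and 2 lower, beside 41.6% and 41.9% of all genes tested. The list median was 0.24. SWE1, the kinase that inhibits Cdc28 before mitosis, rose by 0.45 and PHO81, an inhibitor of Pho85, by 0.35. SIC1, the inhibitor of Clb-bound Cdc28, rose by 0.32. The members called lower were CKS1, a small subunit of the Cdc28 complex, at -0.47 and FAR1, an inhibitor of Cln-bound Cdc28, at -0.31. Both stood above 0 with RPKM as deposited (0.11 and 0.27). There 7 of the 8 were called higher and 0 lower, beside 72.4% of all genes tested called higher. After quantile normalization 5 were called higher and 1 lower.

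Among 16 regulators of cyclin transcription 11 were called higher and 1 lower, beside 41.6% and 41.9% of all genes tested. The list median was 0.36. SWI4, the DNA-binding subunit of SBF, rose from 42.0 ± 1.62 to 68.8 ± 1.86 rescaled RPKM, a rise of 0.70 ± 0.0417 in log2 (SE, limma adjusted p = 8.04e-07). MBP1, its counterpart in MBF, rose by 0.30, and STB1, an SBF cofactor, by 0.65. SWI6, the subunit common to SBF and MBF, was not called (0.06, limma adjusted p = 0.276), nor was the repressor WHI5 (-0.07, limma adjusted p = 0.242). WHI5 was called lower after quantile normalization (-0.40, limma adjusted p = 0.000263) and stood at 0.49 in the RPKM as deposited. The largest rises were those of the homeodomain repressors YHP1 (1.40) and YOX1 (1.29). YHP1 went from 40.2 ± 2.23 to 108 ± 2.93 rescaled RPKM. SWI5, an activator of genes at the exit from mitosis, was not called (-0.08, limma adjusted p = 0.153). BCK2, an activator of G1 transcription apart from Cln3, was lower by a log2 fold change of -0.11, and 0.47 with RPKM as deposited. All 16 were called higher in the RPKM as deposited, beside 72.4% of all genes tested. After quantile normalization 8 were called higher and 1 lower, with a median of 0.13, beside 2521 and 2592 of the 6307 genes tested.

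Of 10 genes of cyclin destruction and Cln3 control, 5 were called higher and 2 lower, beside 41.6% and 41.9% of all genes tested. The list median was 0.09. HRT1, the RING subunit of the SCF ubiquitin ligase, rose by 1.12 and WHI4, a relative of the CLN3 mRNA-binding protein Whi3, by 0.70. SKP1, another SCF subunit, had a log2 fold change of -0.36 and GRR1, the F-box protein that takes Cln1 and Cln2 to SCF, one of -0.33. Without rescaling SKP1 stood at 0.22 and GRR1 at 0.24, and all 10 were called higher, as were 72.4% of all genes tested. After quantile normalization SKP1 stood at 0.15 and GRR1 at -0.38, and 6 of the list were called higher and 2 lower.

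**Figure D4:**
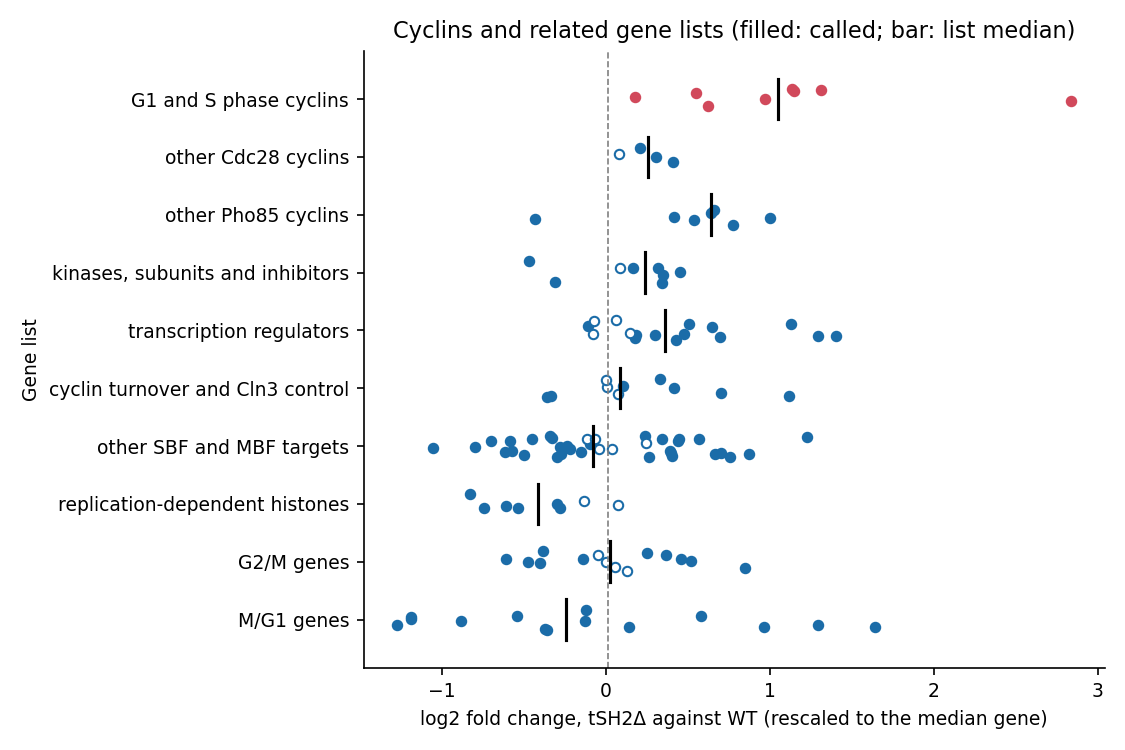
Log2 fold change, tSH2Δ against WT, after scaling to the median gene, for the 8 cyclins (red) and for 9 lists of related genes (blue). Each point is a gene, filled where limma called it, bars give list medians, and the dashed line gives the median of all genes tested. The median of the 8 cyclins is 1.05, and the list medians run from -0.42 for histones to 0.64 for the other Pho85 cyclins.

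Gene lists that mark stages of the cell cycle are given beside the cyclins, and their part in the result was not tested. The other targets of SBF and MBF went both ways. Of 36 tested, 14 were called higher and 17 lower, beside 41.6% and 41.9% of all genes tested. The list median was -0.08 in log2. The polarity gene GIC2 (1.23) and the wall gene CSI2 (0.87) rose furthest, and the replication genes RAD27 (-1.05, on chromosome XI) and POL2 (-0.80) fell furthest. Their summed level was 3504 to 3564 rescaled RPKM in WT and 3507 to 3647 in tSH2Δ, so the strains overlapped at this scaling. With RPKM as deposited 29 of the 36 were called higher and 3 lower, beside 72.4% and 17.3% of all genes tested.

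Of 8 histone genes transcribed in S phase 0 were called higher and 6 lower, beside 41.6% and 41.9% of all genes tested. The list median was -0.42, and HTA1 (-0.83) and HTB1 (-0.74) fell furthest. This depended on the scaling, since 4 were called higher and 2 lower with RPKM as deposited, and 6 higher and 0 lower after quantile normalization. Their summed level was 6160 to 6394 rescaled RPKM in WT and 4599 to 4737 in tSH2Δ. The sum is given only for rescaled RPKM. The list median was above 0 otherwise, at 0.17 with RPKM as deposited and 0.31 after quantile normalization.

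Of 14 G2/M genes 5 were called higher and 5 lower, beside 41.6% and 41.9% of all genes tested. The list median was 0.03, and the sums were 914 to 950.1 rescaled RPKM in WT and 936 to 986 in tSH2Δ. The kinase partner MOB1 (0.85) and the kinesin KIP2 (0.52) rose, and the chitin synthase CHS2 (-0.61) and the bud site gene BUD4 (-0.48, and 0.10 with RPKM as deposited) fell. With RPKM as deposited 12 were called higher and 0 lower, beside 72.4% and 17.3% of all genes tested. Of 14 M/G1 genes 5 were called higher and 9 lower, beside the same 41.6% and 41.9%, with a median of -0.24. The wall protein gene PIR3 (1.64) and the replication licensing gene CDC6 (1.29) rose, and the wall genes PIR1 (-1.27) and CTS1 (-1.19) fell, PIR1 and PIR3 both lying on chromosome XI. The M/G1 sum was 4013 to 4077 rescaled RPKM in WT and 2564 to 2618 in tSH2Δ, and is given only for this scaling. The highest WT means in it were those of PIR1 (1295, and 536 in tSH2Δ) and CTS1 (830, and 363 in tSH2Δ). With RPKM as deposited 9 were called higher and 4 lower, at a median of 0.34, beside 72.4% and 17.3% of all genes tested. After quantile normalization 7 were called higher and 6 lower, at a median of 0.15. No gene of these 4 lists was at 0 in all libraries.

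The position of the cyclin genes in the genome was examined through their neighbours. No gene of the RefSeq R64 annotation overlaps any of the 8, and none of the 8 lies on chromosome XI. The 16 nearest tested neighbours with RefSeq coordinates lay at gaps of 303 to 7207 bases. Of these, 9 were called higher, 4 lower and 3 not called, beside 41.6% and 41.9% of all genes tested called higher and lower. In the RPKM as deposited 14 were called higher and 1 lower, beside 72.4% and 17.3% of all genes tested. RFC3, a clamp loader gene that lies 656 bases before the start of PCL1 on the same strand, had a log2 fold change of -0.07 (limma adjusted p = 0.133). CAF40, a Ccr4-Not subunit gene 1566 bases beyond its end, had one of -0.20. In the RPKM as deposited these stood at 0.51 and 0.38, beside 3.41 for PCL1. Both neighbours of PCL2 were called lower, the calcium exchanger gene VCX1 at -0.40 (0.18 as deposited) and the ATPase gene CDC48 at -0.86 (-0.27 as deposited). Beside CLN1, the kinesin partner gene CIK1, 1114 bases before its start on the same strand, rose by 1.16, much as CLN1 did. BBP1, before the start of CLN2 on the other strand, rose by 0.81, and AIT1, before that of PCL9 on the same strand, by 0.46. Both rose by more than the cyclin gene beside them. CLB5 and CLB6 each lie beside a mitotic cyclin gene, CLB2 at a gap of 746 bases and CLB1 at one of 307 bases, whose rises of 0.21 and 0.41 are given above.

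**Figure D5:**
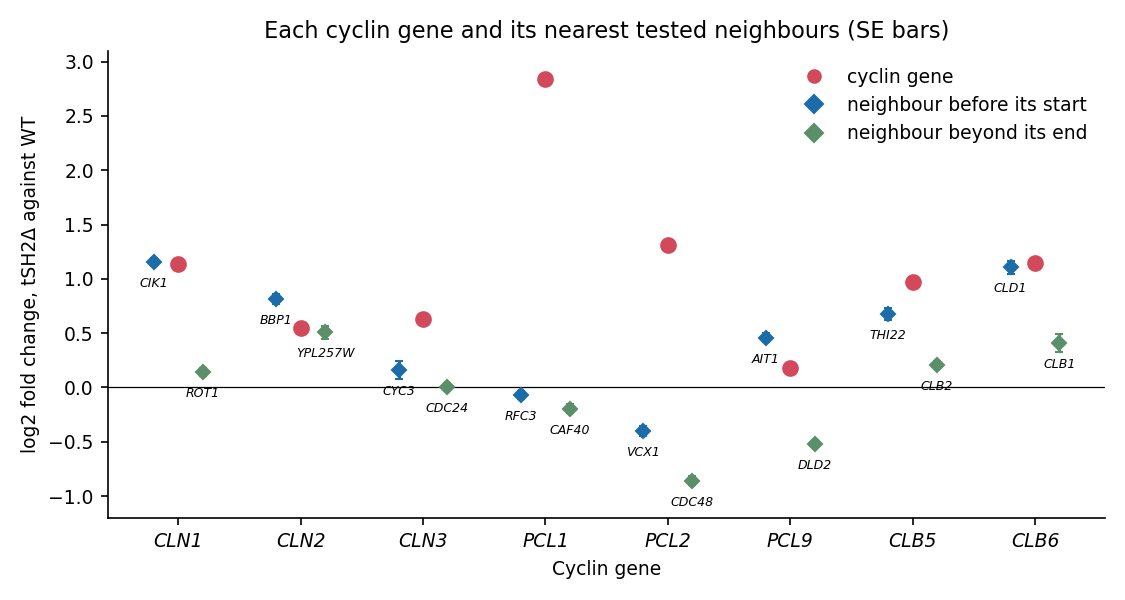
Log2 fold change, tSH2Δ against WT, of each cyclin gene (red circles) and of its nearest tested neighbours with RefSeq coordinates. Neighbours before its start are blue and those beyond its end green, with SE. After scaling to the median gene, both neighbours of PCL1 and of PCL2 lie below 0. The values of CIK1 (1.16) and CLD1 (1.11) are close to those of CLN1 and CLB6. CIK1 lies 1114 bases from CLN1 on the same strand, and CLD1 7207 bases from CLB6 on the other strand.

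The genes whose profile over the 6 libraries was most like that of each cyclin were found by the root-mean-square difference of log2 values centred on each gene's mean. For PCL1 the nearest were TMA10 (0.101) and RTC3 (0.125), and for PCL9 CCC1 (0.00871) and KCC4 (0.0101). CLN1 was nearest to TDA11 (0.0201) and HPA2 (0.0369), CLN2 to SKI7 (0.0131) and PKH3 (0.0133), and CLN3 to REC104 (0.0460) and PET117 (0.0511). PCL2 was nearest to MET2 (0.0217) and ASF2 (0.0285), CLB5 to EST1 (0.0234) and DAM1 (0.0243), and CLB6 to PDE1 (0.0455) and TRS31 (0.0470). With 2 strains this measure mostly reflects the size of the strain difference. Within the 8, the most alike pair was CLN1 and CLB6 (0.0430), followed by CLN1 and CLB5 (0.0816).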

How the data were processed

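The authors deposited, for 6 RNA libraries, the RPKM of 6571 genes. Their second deposited table gives, for 2890 genes, the mean RPKM, the log2 ratio of these means plus 1 and the adjusted p-value of their DESeq2 test, per the file headers. Per the labels' protocols, total RNA was depleted of rRNA with a stranded kit and read as single-end reads of 50 bases. The build was sacCer3, per the submitters' processing notes, which name HTSeq 0.6.1 and Bowtie 1.1.2 among other tools without a role. Whether reads were counted by strand is not given in the sources used. ATAC-seq libraries were not analysed here.

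RPKM times gene length gave whole reads for 100% of values (tolerance 0.01 reads). A row without a gene name, with 0.513% to 0.926% of the reads, was left out. Chi-square per gene between replicates 1 and 2 was 3.19 in WT and 3.11 in tSH2Δ. Between replicate 3 and these it was 8.93 and 14.5 in WT and 12.2 and 18.4 in tSH2Δ. Libraries entered the fit as separate samples. This spread cannot tell separate cultures from repeat libraries of the same culture. Genes with at least 1 RPKM in 3 libraries were fitted with limma 3.58.1 in R 4.3.3 on log2 of median-ratio rescaled RPKM + 1. The fit used trended eBayes, two-sided tests and Benjamini-Hochberg over 6307 genes, without a replicate block. It was checked on simulated reads in which few genes changed, as many up as down. That check does not test the scaling where most genes are called, as here. Names and coordinates came from RefSeq R64, which matched 5897 IDs. The 674 IDs not matched had no coordinates and could not appear as neighbours or overlapping genes.

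The members and lists were chosen with earlier results of these data known. Named genes are the 8 cyclins, their neighbours and most alike genes, all other cyclins, fixed partners and regulators, and up to 2 rises and 2 falls per list. CLD1, BBP1 and AIT1 are such neighbours. The background at the cyclins' own levels was added after seeing the data.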

Additional observations from a re-analysis of the deposited data

How the results depend on the processing

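Each of the 8 cyclin changes kept its direction and its call in all 15 alternatives (pseudocount, filter, scaling, chromosome XI left out, limma-voom on whole reads, replicate block, each library left out), with limma adjusted p of at most 0.0104, that of CLN3 after quantile normalization. The count of called genes split otherwise with RPKM as deposited, 4565 higher and 1091 lower, against 2626 and 2640. Without 1 library each, the counts were 2442 to 2585 higher and 2511 to 2599 lower, and the log2 fold changes were 1.10 to 1.18 for CLN1, 0.51 to 0.58 for CLN2, 0.57 to 0.72 for CLN3, 2.81 to 2.86 for PCL1, 1.28 to 1.33 for PCL2, 0.17 to 0.19 for PCL9, 0.94 to 1.02 for CLB5 and 1.11 to 1.18 for CLB6. The 5 ratios kept their sign in all 9 alternatives, 1 of them (quantile normalization) chosen after seeing the data, with exact p from 0.1 to 0.4, a design too small to pass 0.05. The ratio of CLN3 to the sum of CLN1 and CLN2 changed by -0.26 to -0.10 when 1 library was left out. The replicate block called no cyclin differently (PCL1 2.84, adjusted p = 1.59e-06), and deviations of same-numbered libraries correlated at -0.28 to -0.09, so the numbers were not treated as pairs. For the ratios the block gave 0.59 for CLN1 to CLN2 (exact p = 0.25, the smallest 3 pairs allow).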
